A study of Mus musculus with 8 samples.

Results

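The sarcomere and Z-disc genes are 41 genes that encode the contractile and anchoring proteins of striated muscle. They were chosen by name, as a list, and all 41 members were found among the 37273 genes that the GENCODE annotation of the mouse build mm9 places on the autosomes, X and Y. Of the members, 16 encode proteins used mainly in the heart, 17 encode the isoforms of skeletal muscle, and 8 are shared by both muscles. The cardiac class held Actc1, Tnnt2, Tnni3, Tnnc1, Myh6, Myh7, Myh7b, Myl2, Myl3, Myl4, Myl7, Mybpc3, Actn2, Csrp3, Myoz2 and Nebl. The skeletal class held Acta1, Tnnt1, Tnnt3, Tnni1, Tnni2, Tnnc2, Neb, Myh1, Myh2, Myh3, Myh4, Myh8, Myl1, Mybpc1, Mybpc2, Actn3 and Myoz1. Tpm1, Tpm2, Ttn, Myom1, Myom2, Tcap, Ldb3 and Myot were shared. These classes are simplified, since several cardiac members, such as Tnnc1, Myh7 and Myoz2, also serve skeletal fibres. Several skeletal isoforms also appear in the embryonic heart.

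The study immunoprecipitated BRG1 from the injured hearts of adult C57BL/6 mice, aged 10 to 12 weeks by the sample labels. The study's methods name the primed wild-type mice C57BL/6J and give an older range of age for mice with infarcts. Mice received thymosin β4 (Tβ4) intraperitoneally at 12 mg per kg each day, or PBS as vehicle, for 1 week before the left anterior descending coronary artery was tied permanently to cause a myocardial infarction (MI). Injections followed on days 0 and 2, and hearts were collected on day 4. Each treatment gave 2 BRG1 ChIP libraries and 2 input libraries, 8 libraries in all. The values below come from 1 deposited list of BRG1 regions, named as BRG1 against input in injured hearts primed with Tβ4, which does not separate the 2 replicates and holds no height, fold or p-value. The name of the list carries a cutoff of 3 in the form of the bdgdiff function of MACS2, while the methods give another function, and how a region was called could not be settled. Sequencing depth is not known from it, nor is how far replicates varied, so that no value below has an error and no difference between genes was tested. PBS-primed hearts were not analysed here. Whole hearts hold several cell types, so regions from cardiomyocytes and from other cells cannot be told apart.

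The sarcomere is the repeating contractile unit of striated muscle. Myosin thick filaments pull on actin thin filaments, troponin and tropomyosin switch the thin filament on with calcium, titin links both ends of the thick filament to the lattice, and the Z-disc anchors the thin filaments. BRG1 is an ATPase that drives SWI/SNF complexes, which shift nucleosomes along DNA or remove them. The study describes BRG1 as reactivated in adult heart muscle under stress. There it is said to induce a switch from the α to the β myosin heavy chain, encoded by Myh6 and Myh7.

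Regions covered more of the sarcomere genes than of most genes, with the highest medians among the skeletal isoforms. The list of 524614 regions covered 25.8% of the genome, so a typical stretch of any gene is already partly covered. The window of a gene is its body with 5 kb added at each end. Regions sharing at least 1 bp with the window were counted, and the covered share is the percentage of window bases inside regions. The 41 members had a median covered share of 32%, against 25.2% for the 22367 protein-coding genes. Their median density was 0.248 regions per kb, against 0.228 regions per kb. Each member was also ranked among the 200 protein-coding genes nearest to it in length, as a percentile. By covered share, 30 of 41 members lay above the median of genes of similar length, which was true of 49.9% of all protein-coding genes. By density, 23 of 41 members lay above it, again beside 49.9% of all protein-coding genes. The windows of the members held 520 distinct regions, with a median length of 660 bp, against 600 bp for all regions.

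Near the transcription start site (TSS), taken as the annotated 5′ end of the gene, the members ranged from 0% to 100% covered within 5 kb on either side. Their median was 32.4%, beside 22.2% for all protein-coding genes, and within 2 kb of the TSS the medians were closer, at 18% and 15.3%. A region lay over the TSS of 14 of 41 members, against 24.2% of protein-coding genes. At least 1 region lay within 5 kb of the TSS of 37 members, close to the background of 90.5%, and in the body of 40 members, where the background was 84.1%. The covered share near the TSS exceeded that of genes of similar length in 25 of 41 members, compared with 49.8% of all protein-coding genes.

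Skeletal isoforms had higher medians of covered share than cardiac isoforms, near the TSS, over the window and in the 5 kb downstream of the gene. The covered share within 5 kb of the TSS had a median of 13.7% in the 16 cardiac genes and of 43.4% in the 17 skeletal genes. A region lay over the TSS of 4 cardiac genes, or 25%, and of 9 skeletal genes, or 52.9%, so that the cardiac share was near the 24.2% of all protein-coding genes. The upper quartile of all protein-coding genes, 40.5%, was exceeded near the TSS by 4 cardiac and 9 skeletal genes, where the background is 25%. Below the lower quartile of 7.85%, with the same background of 25%, lay 6 cardiac and 2 skeletal genes. Compared with genes of similar length, 14 of 17 skeletal genes had the higher covered share near the TSS, and 7 of 16 cardiac genes did, beside 49.8% of all protein-coding genes. Over the whole window the classes lay closer, with medians of 28.5% in cardiac and 37.0% in skeletal genes. By density they were closer still, at 0.247 and 0.265 regions per kb, and the order reversed, by 8.22e-05 regions per kb, when at least 50% of a region had to lie inside the window. Within 2 kb of the TSS the classes lay further apart, at 7.12% and 52.8%, and within 10 kb closer, at 19.6% and 40.9%. With the start of any annotated transcript they were at 20.5% and 37.0%. The shared genes had medians of 22.5% near the TSS and 30% over the window.

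**Figure D1:**
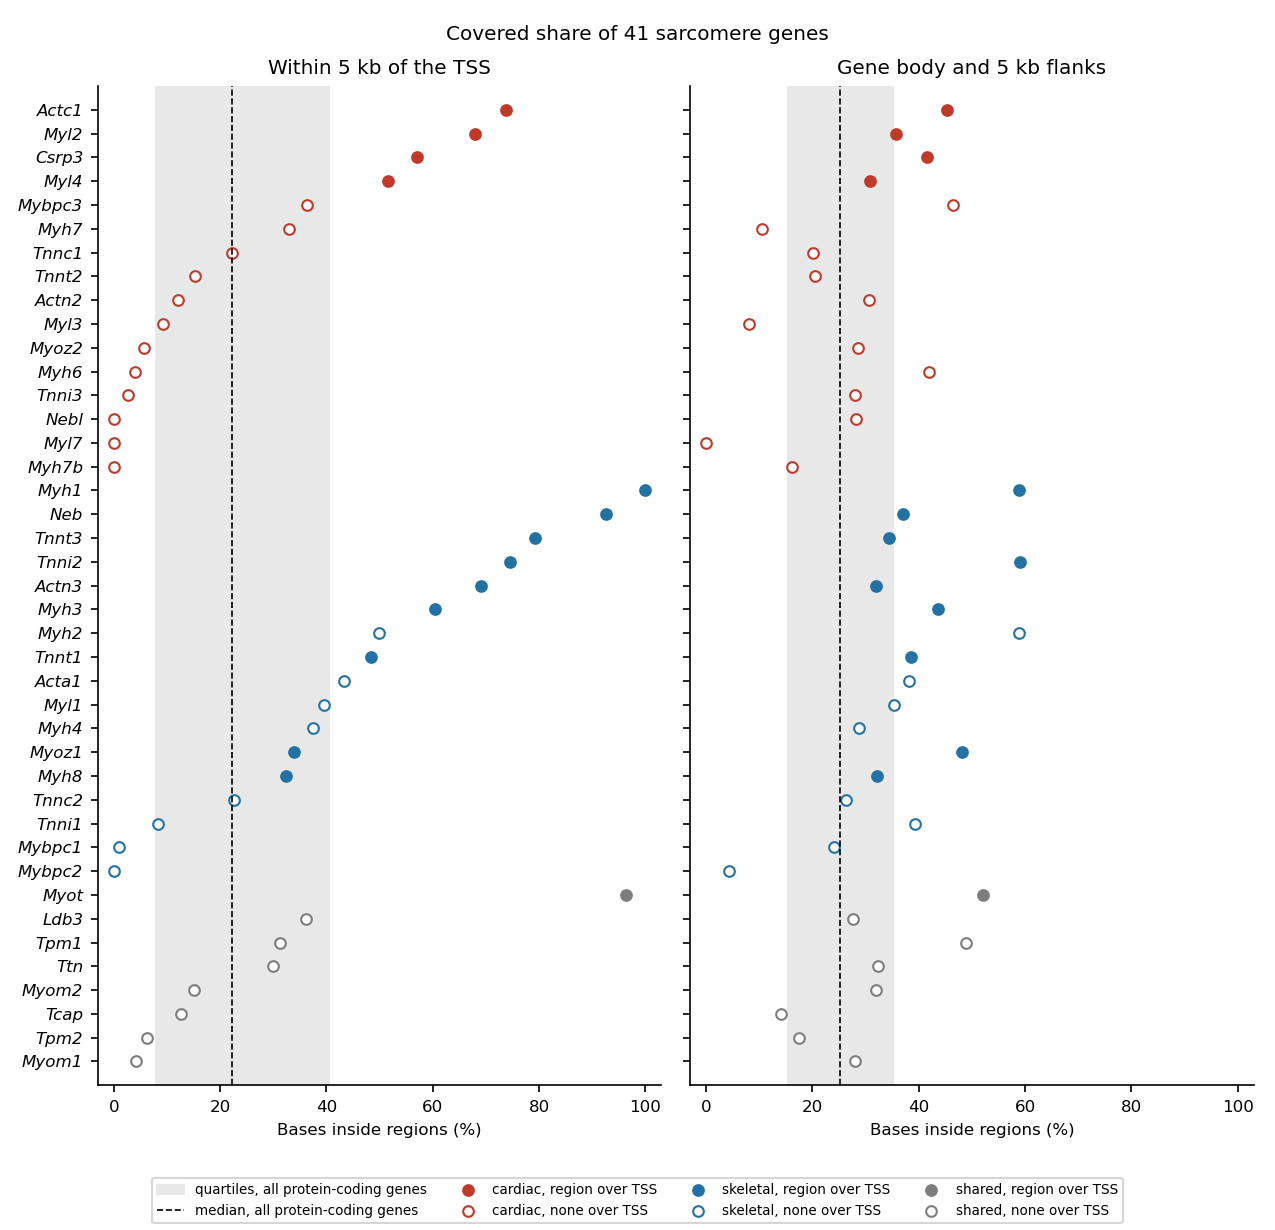
Bases inside BRG1 regions (%) for each of the 41 members, within 5 kb of the TSS (left) and over the gene body with 5 kb flanks (right), ordered within each class by the left-hand value; filled points have a region over the TSS, and the grey band and dashed line give the quartiles and median of all protein-coding genes. On the left, 9 of 17 skeletal genes and 4 of 16 cardiac genes lie to the right of the grey band, and Myot stands alone among the shared genes at 96.4%.

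Averaged over genes, regions covered 43.0% of the 5 kb upstream of the skeletal starts and 50.3% of the 5 kb downstream. The cardiac averages were 24.7% and 24.2%, and all protein-coding genes had 26.5% and 26.9%. In bins of 500 bp, the skeletal average was highest, at 58.2%, between 3000 and 3500 bp downstream of the TSS. The cardiac average was highest, at 34%, between 1500 and 1000 bp upstream. It was 0% in both bins between 8500 and 7500 bp upstream. Across all protein-coding genes the profile was nearly flat, between 24.8% and 27.7%. Without the 5 myosin heavy chain genes that lie together on chromosome 11, the other 12 skeletal genes averaged 37.3% upstream and 48.1% downstream.

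**Figure D2:**
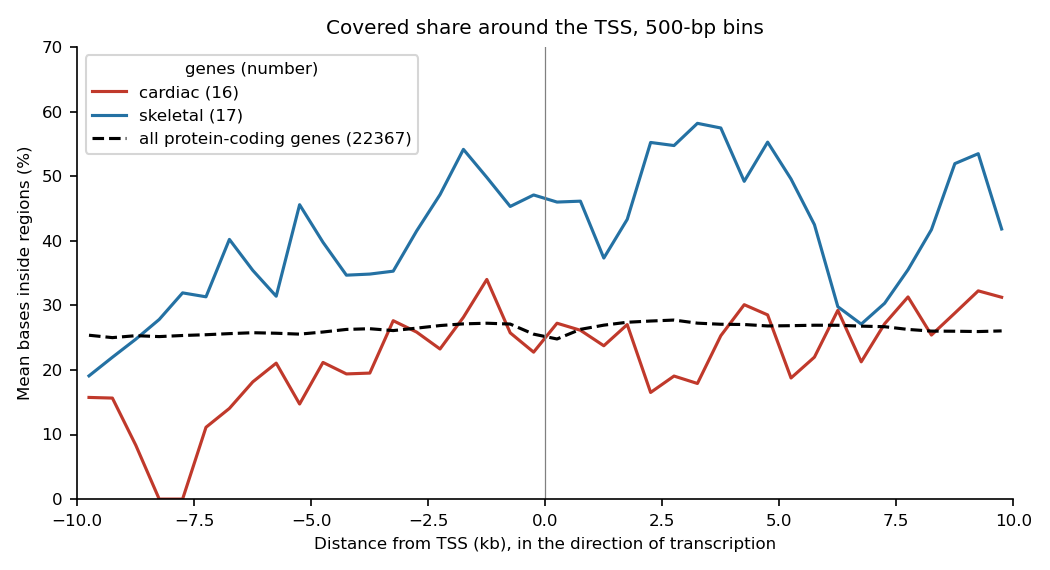
Mean bases inside regions (%) in bins of 500 bp against the distance from the TSS (kb, positive in the direction of transcription) for 16 cardiac genes, 17 skeletal genes and 22367 protein-coding genes. The skeletal line lies above the other lines from 5 kb upstream to 5 kb downstream, and the cardiac line moves between 16.5% and 34% there, around the flat line of all genes.

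The 9 pairs of related isoforms set the classes side by side. The pairs were cardiac and skeletal actin, troponin T, troponin I, troponin C, essential myosin light chain, myosin-binding protein C, α-actinin, myozenin, and nebulette with nebulin. The skeletal gene had the higher covered share near the TSS in 7 of 9 pairs and over the whole window in 7 of 9 pairs. Troponin C, at 22.3% and 22.6% near the TSS, is among the 7 on both measures only with the Tnnc1 record used here. By density it was the higher in 5 of 9 pairs. A region lay over the skeletal start and not over the cardiac start in 5 pairs, and in 1 pair, the actins, the reverse was seen. Nebulette with nebulin is among the 5 by the annotated start of Nebl, while a RefSeq start further downstream lay in a region.

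**Figure D3:**
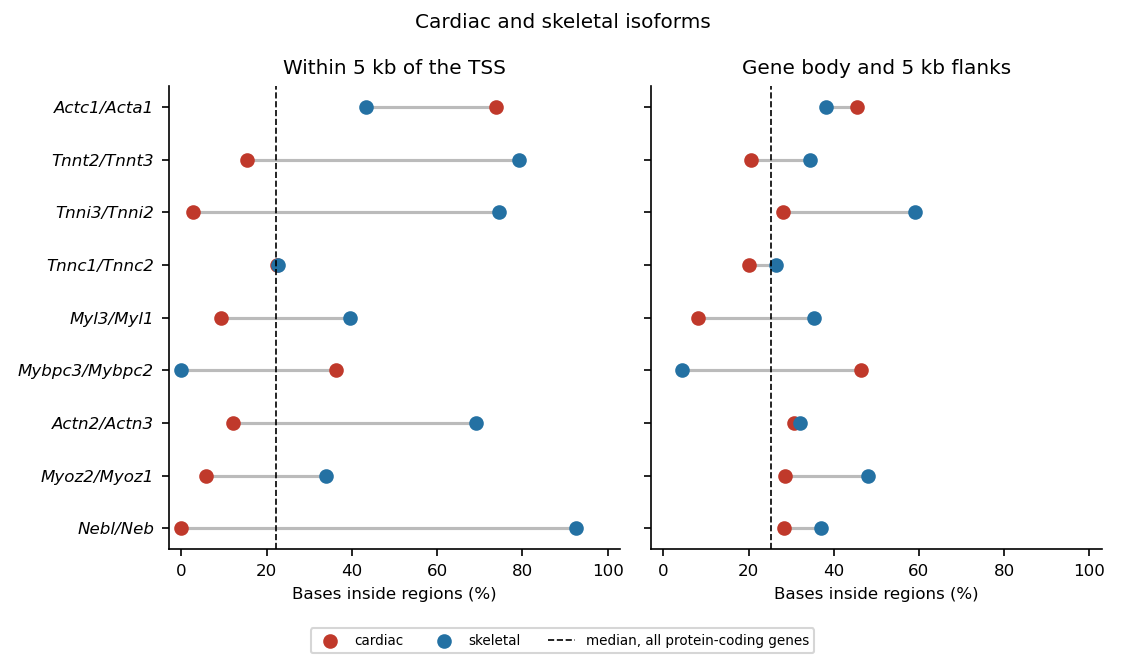
Bases inside regions (%) of the cardiac (red) and skeletal (blue) gene of each of the 9 pairs, near the TSS (left) and over the gene body with 5 kb flanks (right); the dashed line is the median of all protein-coding genes. Actc1 with Acta1 and Mybpc3 with Mybpc2 are the pairs in which the cardiac gene lies to the right, and the troponin C genes share a position on the left.

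Of the thin filament genes, Actc1 and Acta1 encode the α-actins of cardiac and skeletal muscle, which polymerise into the filament itself. Actc1 (chromosome 2, 113873018 to 113879284) had 4 regions in its window at 0.246 per kb, with a covered share of 45.4%. Within 5 kb of its TSS 73.8% of the bases were covered, which placed it at percentile 96 for its length, and a region of 1710 bp lay over the start. Acta1 (chromosome 8, 126415669 to 126418651) had just 1 region, of 4950 bp. This region made the density, 0.0770 regions per kb, the lowest of any member with a region, while the covered share of the window was 38.1%. It lay over 95.9% of the exonic bases of Acta1 and ended 662 bp short of the start, so that none of the 5 kb upstream and 43.4% of the bases within 5 kb of the TSS were covered.

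The promoters of the actins are shown because they are the pair in which the cardiac start alone lay in a region. Promoter sequences came from RefSeq (GRCm38.p6), run from 250 bases before to 50 bases after the RefSeq start, and were placed in mm9 by exact match. Of the 41 members, 33 matched an entry, and the others were Tnnt3, Tnni2, Neb, Actn3, Myoz1, Myom2, Tcap and Myot. Capitals mark matches, on either strand, to the CArG box bound by serum response factor, the MEF2 box, CATTCC (the MCAT element), CAGCTG (an E-box) or TATAAA. No matches overlapped. The Actc1 promoter, chr2:113878562-113878861 on the minus strand, lay inside the region with all of its 300 bases. The RefSeq start of Actc1 lies 673 bp downstream of the annotated one. The Acta1 promoter, chr8:126418626-126418925 on the minus strand, had 0 bases in a region.
Actc1: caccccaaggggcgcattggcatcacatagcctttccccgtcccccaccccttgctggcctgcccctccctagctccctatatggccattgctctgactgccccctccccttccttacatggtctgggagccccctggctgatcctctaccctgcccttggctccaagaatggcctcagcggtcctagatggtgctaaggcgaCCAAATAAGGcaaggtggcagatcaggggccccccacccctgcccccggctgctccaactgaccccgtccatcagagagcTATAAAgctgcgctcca
Acta1: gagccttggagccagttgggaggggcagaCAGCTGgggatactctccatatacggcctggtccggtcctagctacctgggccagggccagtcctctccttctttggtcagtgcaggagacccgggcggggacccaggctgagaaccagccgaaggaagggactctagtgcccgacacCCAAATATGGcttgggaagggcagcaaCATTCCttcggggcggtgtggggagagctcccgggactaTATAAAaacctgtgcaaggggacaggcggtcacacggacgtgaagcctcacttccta

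Both actin promoters held a CArG box, the last letters of which lay 38 bases before the start in Actc1 and 64 bases before it in Acta1. Among the 32851 promoters of this length in the RefSeq table, 1.63% held a CArG box. Members were first counted at the RefSeq start nearest to the annotated one. Of the 33 members, 7 held a CArG box there, with 3 of 16 cardiac and 2 of 12 skeletal genes. CATTCC was found in 12 members and in 14.7% of all promoters, and CAGCTG in 9 members and 16.3%. The MEF2 box, in the 10-base form searched for here, occurred in Mybpc3, Myoz2 and Ttn, and in 0.557% of all promoters. Other forms of this box were not counted. TATAAA occurred in 11 members, 8 of 12 skeletal and 3 of 16 cardiac genes, beside 13.6% of all promoters. Over all 42 RefSeq entries of the members, 8 members held a CArG box, 4 of them cardiac, with Nebl added, while 14 held CATTCC and 10 held CAGCTG. These matches describe the letters of the promoters and do not show binding.

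Troponin T ties troponin to tropomyosin, and its 3 genes had unlike starts. Tnnt3, the fast skeletal gene, on chromosome 7 from 149684741 to 149701914, had only 4 regions in its window, or 0.147 per kb. They covered 34.3% of the window and 79.2% of the bases near the TSS, where a region of 4770 bp lay over the start. Tnnt2, the cardiac gene, with 5 regions at 0.234 per kb, had 20.6% of its window and 15.3% of the bases near the TSS covered. Tnnt1, the slow skeletal gene, on chromosome 7 from 4456172 to 4467984, had 11 regions, or 0.504 regions per kb, at a percentile of 95.2. Of the bases near its TSS 48.3% were covered, and of its window 38.5%.

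The start of Tnnt1, chosen after its values were seen, is shown because its annotated and RefSeq starts fall on different sides of a region's edge. A region of 1350 bp, on chromosome 7 from 4467780 to 4469129, lay over the annotated start. The RefSeq start lies 407 bp downstream and outside that region, with 48 of the 300 bases of its promoter, chr7:4467528-4467827 on the minus strand, still inside. Capitals mark a match to TATAAA, 25 bases before the start at its last letter.
Tnnt1: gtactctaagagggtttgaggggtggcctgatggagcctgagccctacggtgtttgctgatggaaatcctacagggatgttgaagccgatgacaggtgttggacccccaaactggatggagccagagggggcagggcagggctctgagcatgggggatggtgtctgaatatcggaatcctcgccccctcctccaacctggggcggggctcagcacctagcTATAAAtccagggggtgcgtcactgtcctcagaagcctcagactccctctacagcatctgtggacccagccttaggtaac

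Troponin I holds the thin filament off at low calcium. Tnni2, the fast skeletal gene, on chromosome 7 from 149627713 to 149630315, had the highest covered share of any member, 59.1% of its window, with 4 regions at 0.317 per kb. A region of 5790 bp lay over its start and 74.5% of the bases near the TSS were covered. Tnni3, the cardiac gene, on chromosome 7 from 4469907 to 4475831, had 2.70% of the bases near its TSS covered, by a single region of 270 bp. Its gene body was otherwise free of regions, and 84.0% of the 5 kb downstream of the gene was covered. That downstream stretch holds the start of Tnnt1, which follows Tnni3 at a distance of 1922 bp, and 3 regions were counted for both genes. With them Tnni3 had 4 regions, or 0.251 per kb, and a covered share of 28.1%. Tnni1, the slow skeletal gene, had 15 regions and a covered share of 39.2% over its window, but 8.40% near the annotated start.

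With the Tnnc1 record used here, troponin C, the calcium sensor, gave the closest pair near the TSS. Tnnc1 of cardiac and slow muscle, on chromosome 14 from 32021498 to 32024915, had 22.3% of these bases covered, and Tnnc2 of fast muscle, on chromosome 2 from 164602661 to 164605467, had 22.6%. By density they parted. Tnnc2 had the highest value of all members, 0.547 regions per kb, at a percentile of 96.5, and Tnnc1, with 4 regions, had 0.298 regions per kb and a covered share of 20.2%. The 7 regions in the Tnnc2 window were short enough to cover 26.4% of it. With the longer record of Tnnc1, the only change made, the median of the members rose from 32.4% to 33% near the TSS. Over the window it rose from 32% to 32.25%. Such rises need a Tnnc1 share of at least 33% near the TSS and above 32% over the window, beyond both values of Tnnc2.

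Tropomyosin lies along the actin filament and blocks myosin at rest. Tpm1 (chromosome 9, 66870397 to 66897213) had 12 regions and a covered share of 48.8%, at a percentile of 90. Its density was 0.326 per kb, and near its TSS, which no region overlapped, 31.2% of the bases were covered. Tpm2 had 7 regions, or 0.367 per kb, which covered 17.5% of its window. Near the TSS of Tpm2 6.30% of the bases were covered, at a percentile of 16.5, all of them upstream of the start. Beyond the 3′ end of the gene, 46.3% of the next 5 kb was covered.

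Nebulin is a giant protein that runs along the skeletal thin filament, and nebulette is its smaller cardiac relative at the Z-disc. At the annotated starts, their genes were the most unlike pair near the TSS. Neb (chromosome 2, 51992167 to 52194318) had 49 regions, or 0.231 per kb, and a covered share of 37.0%. Near its start 92.5% of the bases were covered, at a percentile of 99, and of 10 equal segments of the gene, numbered from the 5′ end, segment 1 was covered at 76.6% and segment 9 was the lowest at 7.57%. Nebl, on chromosome 2 from 17265536 to 17653091, is 387556 bp long. Its window held 70 regions, or 0.176 per kb, and was covered at 28.3%, but 0% of the bases within 5 kb of its annotated start were covered. The nearest region lay 21259 bp from it. Nebl has further starts in RefSeq. At the one 268608 bp downstream of the annotated start, a region lay over the start and 84.0% of the bases within 5 kb were covered. The starts 61299 bp and 205334 bp downstream had 23.6% and 2.10%. Pair values of Nebl use the annotated start, so they do not describe the start with 84.0%. Which start serves cardiac nebulette was not tested.

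**Figure D4:**
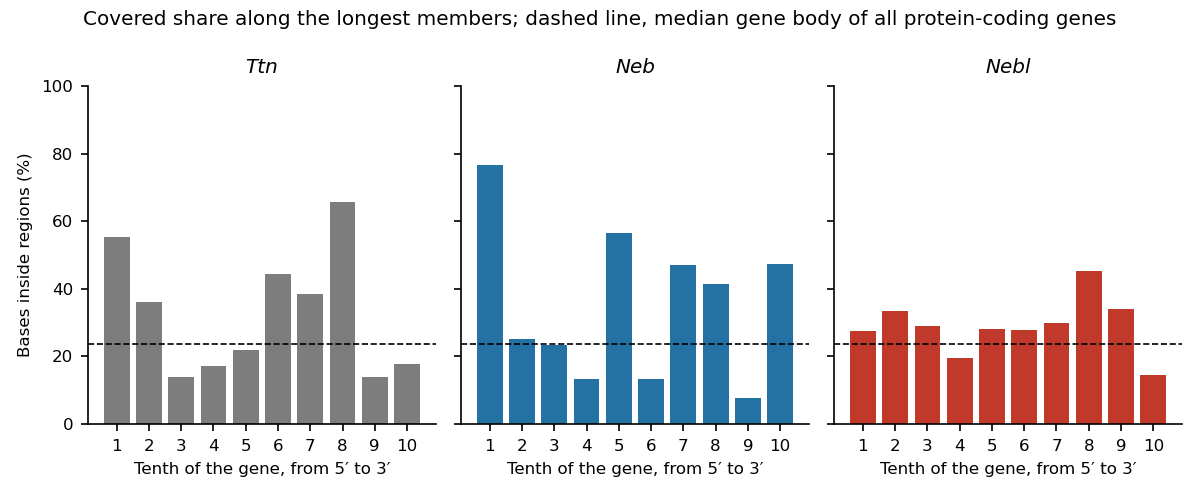
Bases inside regions (%) in 10 equal segments of the 3 longest members, numbered from the 5′ end; the dashed line is the median gene body of all protein-coding genes, 23.7%. Segment 1 is the highest in Neb, and segment 8 is the highest in Ttn and in Nebl.

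By covered share, of the window and near the TSS, thick filament genes reached from 0% to among the highest values. The skeletal myosin heavy chains Myh3 (embryonic), Myh2, Myh1 and Myh4 (fast adult) and Myh8 (perinatal) lie in this order on chromosome 11, within 230335 bp from 66891802 to 67122136. Their median covered share was 43.6% over the window and 49.9% near the TSS, and all 5 exceeded genes of similar length on both counts. A single region of 18390 bp, the longest in the window of any member, ran from the last part of Myh2 across the 2534 bp between the genes into Myh1. This region made Myh1 the only member with 100% of the bases near its TSS covered. Myh1 and Myh2 had nearly equal covered shares of their windows, 58.9% and 58.8%, from 8 and 9 regions, or 0.232 and 0.247 per kb. Between the myosin heavy chain genes coverage was uneven. The annotation also places 2310065F04Rik between Myh3 and Myh2, and Gm12300 across most of the stretch between Myh1 and Myh4. The protein-coding Gm10995 runs from within Myh2 past the start of Myh1, and 9430073C21Rik from the last part of Myh2 into the stretch between them. Regions covered 10.8% of the 68735 bp between Myh3 and Myh2, 56.7% of the 13235 bp between Myh1 and Myh4, and 18.7% of the 16677 bp between Myh4 and Myh8.

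The other starts of the cluster were covered to different extents. Myh3 had a region of 6330 bp over its TSS, with 60.4% of the bases near it covered, and 10 regions, or 0.294 per kb, covered 43.6% of its window. Myh8 had a region of 1200 bp over its TSS and 32.4% covered near it, and its 11 regions, or 0.265 per kb, covered 32.2% of its window. At Myh2 and Myh4 no region lay over the TSS, with the nearest regions 710 bp and 1255 bp away. Near these starts 49.9% and 37.5% of the bases were covered. Myh4 had 10 regions, or 0.306 per kb, and the lowest covered share of the cluster, 28.8%.

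The cardiac myosin heavy chains had a lower median near the TSS, 3.90%, although Myh7, at 33.0%, lay above the skeletal Myh8. Within 2 kb of the TSS that order was reversed, at 43.5% for Myh7 and 52.8% for Myh8. Myh6 encodes the fast α chain of the adult mouse ventricle and Myh7 the slower β chain of the fetal heart. No region lay over the TSS of Myh6, Myh7 or Myh7b, and the covered share near the TSS was 3.90% at Myh6 and 0% at Myh7b. Over the window, 12 regions covered 41.8% of Myh6, or 0.343 regions per kb, and 6 regions covered 16.2% of Myh7b, or 0.181 per kb. Myh7, with 3 regions and 0.0884 per kb, had 10.6% of its window covered, at a percentile of 10, which placed it among the 5 lowest members. A region of 2190 bp covered 43.8% of the 5 kb upstream of the Myh7 start. The study names that stretch as a known BRG1 site and, in the same experiments, reports binding there. In Myh6 the regions gathered towards the 3′ end, and 80.2% of the 5 kb downstream of the gene was covered. The 3760 bp between Myh7 and Myh6, which is where Myh6 begins, held 0 regions. Myh1 and Myh6 are shown as the starts with the most and nearly the least coverage among myosin heavy chains, a choice made after their values were seen. The Myh1 promoter, chr11:67013354-67013653 on the plus strand, lay wholly in a region, and that of Myh6, chr14:55585395-55585694 on the minus strand, held 0 bases of one. Capitals mark the same motifs as above, with TTTATA and GGAATG as their reverse complements.
Myh1: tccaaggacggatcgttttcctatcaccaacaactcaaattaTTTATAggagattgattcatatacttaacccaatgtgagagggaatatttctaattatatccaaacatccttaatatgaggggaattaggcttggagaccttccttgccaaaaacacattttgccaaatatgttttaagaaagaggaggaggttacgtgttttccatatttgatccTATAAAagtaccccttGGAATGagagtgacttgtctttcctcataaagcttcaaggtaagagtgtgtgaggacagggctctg
Myh6: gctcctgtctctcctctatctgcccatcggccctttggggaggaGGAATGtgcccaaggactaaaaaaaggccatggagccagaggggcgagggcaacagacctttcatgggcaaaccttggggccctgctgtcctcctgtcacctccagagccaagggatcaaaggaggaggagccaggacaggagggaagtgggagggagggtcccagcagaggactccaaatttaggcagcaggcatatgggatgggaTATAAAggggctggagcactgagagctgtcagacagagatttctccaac

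**Figure D5:**
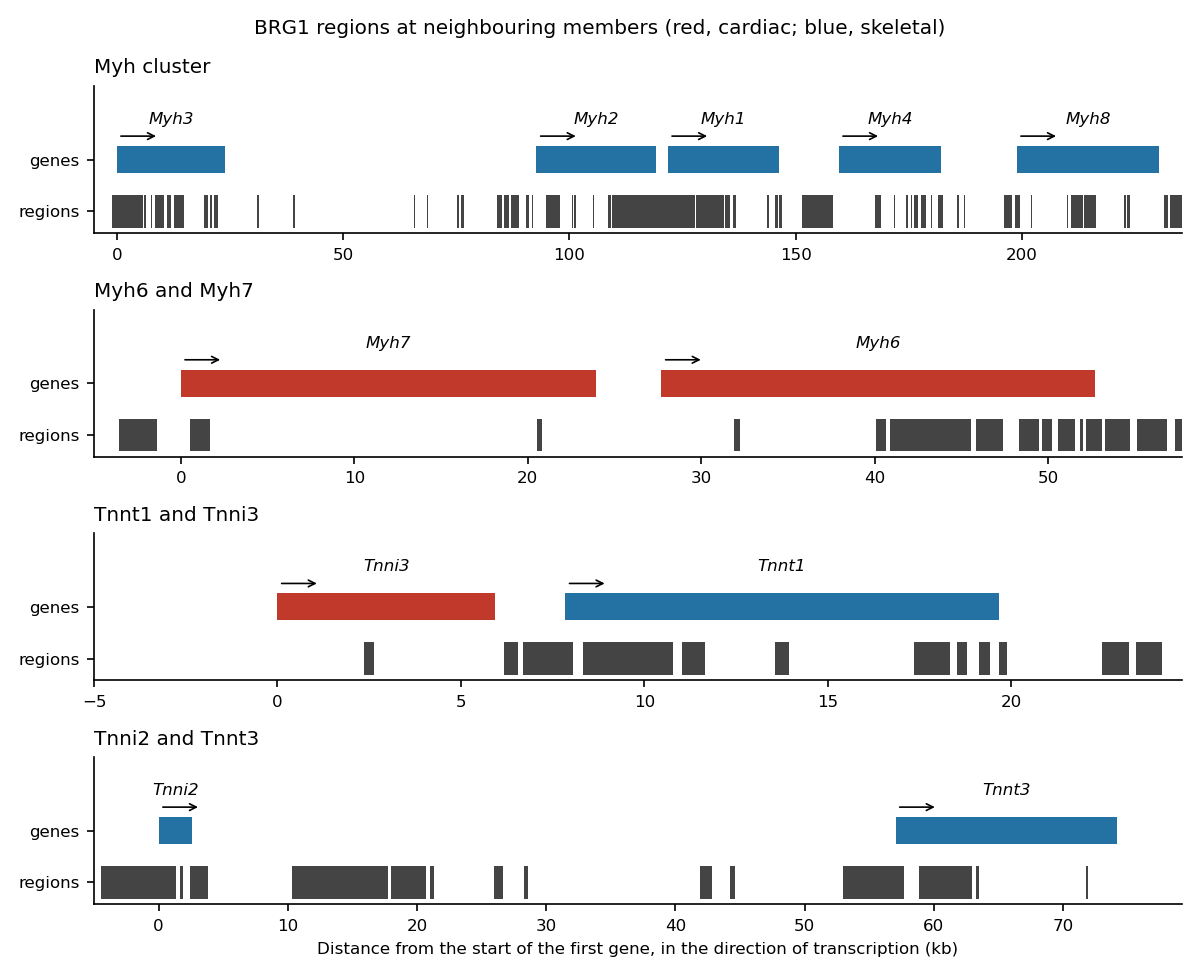
BRG1 regions (dark bars) and genes at 4 loci, against the distance (kb) from the start of the first gene; arrows give the direction of transcription, red marks cardiac and blue skeletal genes, and panels have different scales. Regions lie over the starts of Myh3, Myh1, Myh8, Tnnt1, Tnni2 and Tnnt3, and the stretch between Myh7 and Myh6 is empty.

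The myosin light chains bind the neck of the myosin head. Myl2, the regulatory chain of the ventricle, on chromosome 5 from 122550960 to 122563481, had 10 regions, or 0.444 regions per kb, the highest density of a cardiac gene, and a covered share of 35.6%. Near its annotated TSS 68.0% of the bases were covered, by 8 regions, one of which, of 1320 bp, lay over the TSS. The RefSeq starts of Myl2 lie 7762 bp and 8227 bp upstream, and there no region lay over the start and 32.4% and 27.7% of the bases within 5 kb were covered. Myl4, the atrial and embryonic essential chain, on chromosome 11 from 104411977 to 104457067, had a region of 3720 bp over its TSS and 51.6% of the bases near it covered. Its 11 regions, at 0.2 per kb, covered 30.8% of the window.

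Myl7, the regulatory chain of the atrium, on chromosome 11 from 5796640 to 5798785, was the only member without a region in its window, so that its density and covered shares were 0. The nearest region lay 8645 bp from its start. Myl3, the ventricular essential chain, on chromosome 9 from 110666150 to 110672308, had 4 regions of at most 390 bp, which covered 8.17% of the window and 9.30% of the bases near the TSS, at 0.248 per kb. Its skeletal counterpart Myl1, on chromosome 1 from 66970869 to 66991978, had 6 regions, or 0.193 per kb, a covered share of 35.4% and 39.5% near the TSS. None of its exonic bases were covered, whereas 45.6% of its intronic bases were.

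Myosin-binding protein C sits on the thick filament and tunes cross-bridge cycling. As in the actins, the cardiac gene had the higher covered share. Mybpc3, the cardiac gene, on chromosome 2 from 90958301 to 90976673, had 10 regions, or 0.352 per kb, a covered share of 46.4% at a percentile of 89, and 36.3% near the TSS. Mybpc2, the fast skeletal gene, on chromosome 7 from 51757088 to 51780039, had 4 regions of at most 540 bp, or 0.121 per kb, a covered share of 4.37% at a percentile of 2, and 0% near the TSS. Mybpc1, the slow skeletal gene, had 19 regions in its longer window and 0.980% near the TSS covered. Both skeletal genes thus lay below the lower quartile of all protein-coding genes at their starts.

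Titin and the M-band genes were covered to a similar extent over their length. Ttn, which spans 278568 bp of chromosome 2 from 76542037, encodes the molecular spring between Z-disc and M-band. It had 58 regions, 0.201 regions per kb, at a percentile of 44.5, and a covered share of 32.3% at a percentile of 76.5. Near its TSS 30% of the bases were covered, and 0% within 2 kb of it. The density of Ttn was thus below that of the median gene of its length and its covered share above. Of its 10 segments, segment 1 was covered at 55.4% and segment 8 at 65.6%, whereas the others ranged from 13.9% to 44.4%. Myom1 and Myom2 encode myomesins, which cross-link myosin in the M-band. Regions covered 28.1% and 31.9% of their windows but 4.20% and 15% of the bases near their starts.

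Among Z-disc genes, the α-actinins cross-link thin filaments of opposite polarity. Actn3, the fast skeletal gene, on chromosome 19 from 4861223 to 4877909, had 14 regions, 0.525 regions per kb, at a percentile of 98.5, the highest of the members. Near its TSS 9 regions covered 69.1% of the bases, and the one over the start was 450 bp long. Actn2, placed in the cardiac class here, had 25 regions at 0.307 per kb and 12.1% near its TSS covered. Its covered share of 30.6% over the window was close to the 32% of Actn3.

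Myozenins bind calcineurin at the Z-disc. Myoz1, the fast skeletal gene, on chromosome 14 from 21468324 to 21475762, had a region of 1530 bp over its TSS, 33.9% covered near it and 48.1% over the window, from 7 regions at 0.401 per kb. Myoz2, the cardiac and slow muscle gene, on chromosome 3 from 122709124 to 122737908, had 5.70% and 28.6%, from 8 regions at 0.206 per kb. Csrp3, which encodes the muscle LIM protein, on chromosome 7 from 56085768 to 56103400, was the cardiac Z-disc gene with a region over its TSS. That region was 2400 bp long, 57.1% of the bases near the TSS were covered, and the window reached 41.5%, with 9 regions at 0.326 per kb.

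The shared Z-disc genes lay far apart. Myot, the gene of myotilin, on chromosome 18 from 44493728 to 44515378, had 6 regions, or 0.19 per kb, with 96.4% of the bases near the TSS and 52.1% of the window covered, and a region of 5910 bp over the start. Its percentile near the TSS was 99.5. Tcap, which encodes the titin cap, on chromosome 11 from 98245125 to 98246267, had 12.6% and 14.1%, with 4 regions at 0.359 per kb, and a region began 75 bp downstream of its start. Ldb3, the gene of a PDZ-LIM protein, had 36.1% near the TSS and 27.5% over the window.

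Introns were covered more than exons in the members, as in other genes. Members had a median of 23.9% of exonic and 33.5% of intronic bases covered, and all protein-coding genes had 18.7% and 24.6%. The medians were 16.4% and 27.5% in cardiac genes and 28.6% and 36.5% in skeletal genes. In the 5 kb upstream of the TSS the medians were 12.9% in cardiac and 42.0% in skeletal genes, and in the 5 kb downstream of the gene 6.30% and 33.0%. By role, thin filament genes had a median covered share of 37.0% over the window, thick filament genes 31.5%, titin and M-band genes 31.9%, and Z-disc genes 30.6%.

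Other properties also differed between the classes. GC content had a median of 51.5% in cardiac and 49.3% in skeletal genes, and gene length 18003 bp and 22635 bp. Across all 22367 protein-coding genes, GC content and covered share near the TSS had a Spearman correlation of -0.0409, and across the 41 members -0.195. With the covered share of the window the correlations were -0.0840 and -0.317. These are descriptions across genes, which are not independent replicates. The authors kept reads with at most 2 matches in the genome, and reads from related genes can be lost in this way. Words of 32 bases found more than 2 times in mm9 made up a median of 2.54% of the bases near the cardiac starts and 3.58% near the skeletal starts. Among members this share near the TSS was highest at Tnni3, 12.8%. The part of these properties in the difference between classes was not tested.

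Further lists of genes give the setting. The 38 other sarcomere genes, of the same compartments, had a median of 24.9% near the TSS and 27.7% over the window, with a region over the TSS of 10 of them, or 26.3%, beside 24.2% of all protein-coding genes. Near the TSS, Ankrd1 was their highest at 86.4% and Hspb7 among their lowest at 0%. The 17 genes of cardiac calcium handling and ion channels had medians of 20.6% and 28.2%, with a region over the TSS of 7, or 41.2%, and with Cacnb2 among those at 0% and Hcn4 the highest at 100%. The 10 smooth muscle genes had medians of 19.8% and 20.6%, with a region over the TSS of 2, or 20%, Actg2 among those at 0% and Lmod1 the highest at 56.8%. The 18 genes typical of liver had medians of 10.4% and 20.8%, with a region over the TSS of 4, or 22.2%, Alb among those at 0% and Hpx the highest at 61.3%. Against these lists the skeletal sarcomere genes, at 43.4% near the TSS, had the highest median, and the cardiac sarcomere genes, at 13.7%, lay between the liver and smooth muscle genes.

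The annotated starts do not always equal those of RefSeq. Of the 33 members with an entry, 21 had a RefSeq start within 100 bp of the annotated one. It lay more than 1000 bp away in 4 members, Tnnt2, Tnni1, Tnni3 and Myl2. With the nearest RefSeq start in place of the annotated one for these 33 members, and the annotated start kept for the other 8, the median covered share near the TSS was 10.8% in cardiac and 48.3% in skeletal genes. A region then lay over the start of 3 cardiac and 8 skeletal genes, since Myl2 and Tnnt1 no longer counted. The share of all protein-coding genes at RefSeq starts was not computed, so these counts have no background. For Nebl the nearest entry, at 0%, was used and not its start with 84.0% covered. At Tnni1 the share near the start was 59.5% in place of 8.40%, and at Tnnt2 it was 2.70% in place of 15.3%. Tnni3 had 6.60% in place of 2.70%, and Myl2 32.4% in place of 68.0%.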

How the data were processed

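Per the labels and the study's methods, the authors mapped reads to mm9 with Bowtie 1.0.0 and used MACS2 2.0.10 for regions of BRG1 against input. Their methods give its bdgcomp function, but the list is named like output of bdgdiff with a cutoff of 3, and the call could not be settled. Each deposited region has a chromosome, 2 positions in bp and a name that gives the condition, and the list carries no score or other signal. How the replicates were combined is not given in the sources used here.

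Regions were counted over mm9 GENCODE genes with Python 3.11.15, numpy 2.4.6, pandas 2.3.3 and scipy 1.17.1, at an overlap of at least 1 bp, with 5 kb flanks. Figures were drawn with matplotlib 3.10.9. Counting was tested on simulated regions against bedtools 2.31.1. Tnnc1 has 2 annotated records, and the one with the lower identifier was used. Members and lists were chosen with earlier results of these data known. All members were named by role. Region counts, densities and covered shares were given for the 9 pairs, the myosin heavy chains, Ttn, the 5 members highest and the 5 lowest by covered share, and those with a region over the TSS. Promoters were printed for pairs with a region over 1 TSS of 2 where both had an entry, and those of Myh1, Myh6 and Tnnt1 were added after their values were seen. Alternatives varied the regions, windows, overlap, starts, genes of similar length and members, and those with RefSeq starts, the longer Tnnc1 record, and without the myosin heavy chain cluster or Myl7 were chosen after seeing the data. No test was run, because 1 list that does not separate replicates allows none. PBS data were not analysed here.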

Additional observations from a re-analysis of the deposited data

How the results depend on the processing

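The 15 alternatives gave 165 values for lists of genes, of which 61 could not change because the alternative did not touch them and say nothing about stability. Of the 104 others, 9 moved beyond the 95% binomial interval of a median, or beyond 1.5 times for a count or difference, and 1 changed sign. That interval is taken across genes, which are not replicates, so lying inside it is no sign of stability. Near the TSS it is wide, and the median of the members fell there from 32.4% to 18% with 2 kb windows. The median covered share over the window ranged from 28.5% to 35.4%. A region lay over the TSS of 12 to 19 members where all 41 were kept. It was 11 of 36 without the myosin heavy chain cluster, and 12 of 35 without genes whose windows overlap. The 19 came from the start of any annotated transcript, which gives genes with several starts more chances. The background of 24.2% is for the single annotated start. No such share of all protein-coding genes was computed for any transcript or for RefSeq starts, so counts there have no background. The cardiac minus skeletal difference in covered share was negative under all 9 alternatives that could change it over the window, and under all 11 near the TSS.

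The median density fell to 0.158 regions per kb with regions within 500 bp joined and to 0.126 with only regions of at least 600 bp, as fewer regions were then counted. The cardiac minus skeletal difference in median density, -0.0183 regions per kb, was not stable. It was -0.0389 with only regions of at least 600 bp, -0.0730 with 2 kb windows, -0.0435 with 10 kb windows, -0.0337 without genes whose windows overlap, and -0.0275 without the myosin heavy chain cluster. It changed sign, to 8.22e-05, when at least 50% of a region had to lie inside the window. The difference in covered share near the TSS, -29.7 percentage points, was -45.7 with 2 kb windows and -16.6 with the TSS of any annotated transcript. The cause of these changes was not tested.

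The alternatives with RefSeq starts, the longer Tnnc1 record, and without the myosin heavy chain cluster or Myl7 were chosen after seeing the data. Of 823 values for single genes, 144 moved by more than 1.5 times. The 823 include values that could not change and say nothing about stability. Among these are the values without regions longer than 100 kb, as 0 such regions lay in a member window. A stricter score threshold and leaving out each replicate were not run, because the list carries no score and does not separate replicates. No paired analysis was possible because the 1 pooled list holds no replicates to pair.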
